A study of Homo sapiens with 6 samples.

Results

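Receptor tyrosine kinases are cell-surface proteins that bind a growth factor outside the cell and switch on a kinase inside it. The 10 receptor genes described here are RET, KIT, MET, EGFR, ERBB2, ERBB3, ERBB4, FGFR1, FGFR2 and FGFR3. They were taken by name, with earlier results of these data known, and are 10 of the 62696 genes counted and 10 of the 17307 genes with enough counts to be tested. Every one of them was tested. RNA-Seq was performed on DMS53, an established small cell lung cancer (SCLC) cell line with neuroendocrine (NE) features, to ask how forced expression of the transcription factor OC2, encoded by ONECUT2, alters gene expression. The control cells carried the empty pLenti-C-mGFP-P2A-Puro lentiviral vector and the OC2-OE cells carried the same vector with the ONECUT2 open reading frame fused to mGFP, so both groups were transduced and selected with puromycin. Each group has 3 libraries of poly(A) RNA, which the study describes as independent experiments. The sample labels do not say whether these libraries came from separate transductions. Expression of the vector is constitutive, no time after transduction is given, and a single parental line was used.

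A receptor of this family is usually activated when its ligand brings receptor molecules together, after which tyrosines in the cytoplasmic tail are phosphorylated and recruit adaptors that feed the RAS-ERK and PI3K-AKT routes. RET is the signalling receptor for the GDNF family of ligands, which reach it through GFRA co-receptors, and is best known in neurons and neuroendocrine cells. KIT binds stem cell factor and MET binds hepatocyte growth factor. EGFR, ERBB2, ERBB3 and ERBB4 form pairs with each other. ERBB2 has no known ligand of its own and ERBB3 has little kinase activity. FGFR1, FGFR2 and FGFR3 bind fibroblast growth factors together with heparan sulfate or a klotho co-receptor.

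As a check of the labels, ONECUT2 was read before the receptors. All 3 libraries labelled OC2-OE were above all 3 control libraries, with 215647 summed counts against 1271. Totals were between 16533284 and 19099337 counts per library, and no library stood apart from its group. Squared differences between libraries of a group were 1.32 to 2.06 times what sampling of counts gives (chi-square per degree of freedom). Between groups they were 92.7 to 104 times that. Expression is given as CPM, counts scaled to a common library size by TMM normalization, with the SD over 3 libraries. A gene is called changed at an adjusted p under 0.001 in edgeR's quasi-likelihood fit, adjusted by Benjamini-Hochberg over the 17307 genes. Because 56.5% of all tested genes passed this threshold, a call alone says little about a receptor, and the sizes of the differences are given beside it.

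Promoter windows are shown for RET, FGFR2 and EGFR, which stand for the receptor with the deepest fall, the only receptor of the 10 that rose and a receptor that did not pass the test. Each window is the 250 bases before the first RefSeq start of the gene on GRCh38.p14, printed 5′ to 3′ on the gene's strand, and capitals mark GGGCGG, the GC box bound by SP1-type factors, or CCGCCC, its reverse complement. The windows are chr10:43076819-43077068 on the plus strand for RET, chr10:121598445-121598694 on the minus strand for FGFR2 and chr7:55018767-55019016 on the plus strand for EGFR.
RET: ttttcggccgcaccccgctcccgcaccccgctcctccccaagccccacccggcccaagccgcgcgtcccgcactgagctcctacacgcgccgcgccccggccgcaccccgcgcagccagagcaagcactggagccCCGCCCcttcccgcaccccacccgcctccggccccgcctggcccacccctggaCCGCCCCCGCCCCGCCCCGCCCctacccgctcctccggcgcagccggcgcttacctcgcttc
FGFR2: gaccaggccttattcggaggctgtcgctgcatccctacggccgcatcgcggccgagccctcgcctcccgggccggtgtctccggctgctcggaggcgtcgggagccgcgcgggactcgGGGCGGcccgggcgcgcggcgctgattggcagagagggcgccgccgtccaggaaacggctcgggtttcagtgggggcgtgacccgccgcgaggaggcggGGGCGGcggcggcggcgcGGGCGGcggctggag
EGFR: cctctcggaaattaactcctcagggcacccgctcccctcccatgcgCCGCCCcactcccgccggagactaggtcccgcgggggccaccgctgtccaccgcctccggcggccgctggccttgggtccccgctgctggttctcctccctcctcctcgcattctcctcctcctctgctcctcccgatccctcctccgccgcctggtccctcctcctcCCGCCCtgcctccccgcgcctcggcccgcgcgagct
The GC content of these windows was 79.6% for RET, 78.4% for FGFR2 and 73.6% for EGFR, against a median of 58.0% over 35116 RefSeq windows of the same length. The RET window held 5 GC boxes, beginning 115, 62, 56, 51 and 46 bases before the start, and neighbours among the last 3 of these overlap by a single base. FGFR2 held 3, at 132, 33 and 15 bases before the start, and EGFR held 2, at 204 and 36 bases. The last few bases of the RET and FGFR2 windows lie inside the genes as annotated for counting, whose start is upstream of the RefSeq start, and the FGFR2 box at 15 bases lies mostly inside the gene. RefSeq windows were matched for 8 of the 10 receptors, with 14 windows in all because several genes have more than one start, and 9 of the 14 held GGGCGG on either strand, against 42.6% of all windows. Letters found in sites of ONECUT factors were also searched on both strands. ATTGAT was in 0 of the 14 windows against 5.58% of all windows, ATCGAT in 0 against 0.655% and ATTGAC in 1 against 5.17%. That window belongs to the third RefSeq start of FGFR2, and the match begins 213 bases before it. Such matches describe letters in these windows and are not binding data.

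Most of the 10 receptors were lower in OC2-OE cells. RET, KIT, MET, ERBB2, ERBB3, ERBB4 and FGFR1 fell, FGFR2 rose, and EGFR and FGFR3 did not pass the test. That is 7 lower and 1 higher, or 80.0% called, where 28.7% of all tested genes were lower and 27.8% higher. The direction of that near-even split over all genes turned with the scaling, from 4810 higher and 4966 lower to 5337 and 4427 by library size only and 5256 and 4521 by upper-quartile normalization, while the 10 receptors stayed at 7 lower and 1 higher. The median log2 fold change of the 10 was -0.43 and their median absolute change 0.63, against 0.01 and 0.38 over all tested genes. When a change of 1 or more on the log2 scale was also required, 4 receptors remained of the 10, against 17.3% of all tested genes. RET, KIT and ERBB4 were the 3 lower ones and FGFR2 the 1 higher, where 9.04% of all tested genes were lower and 8.29% higher. The control and OC2-OE libraries did not overlap for 8 of the 10, against 73.2% of all tested genes (36.7% lower and 36.5% higher). In bulk RNA, fewer cells that express a receptor and less of its RNA per cell cannot be told apart.

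**Figure D1:**
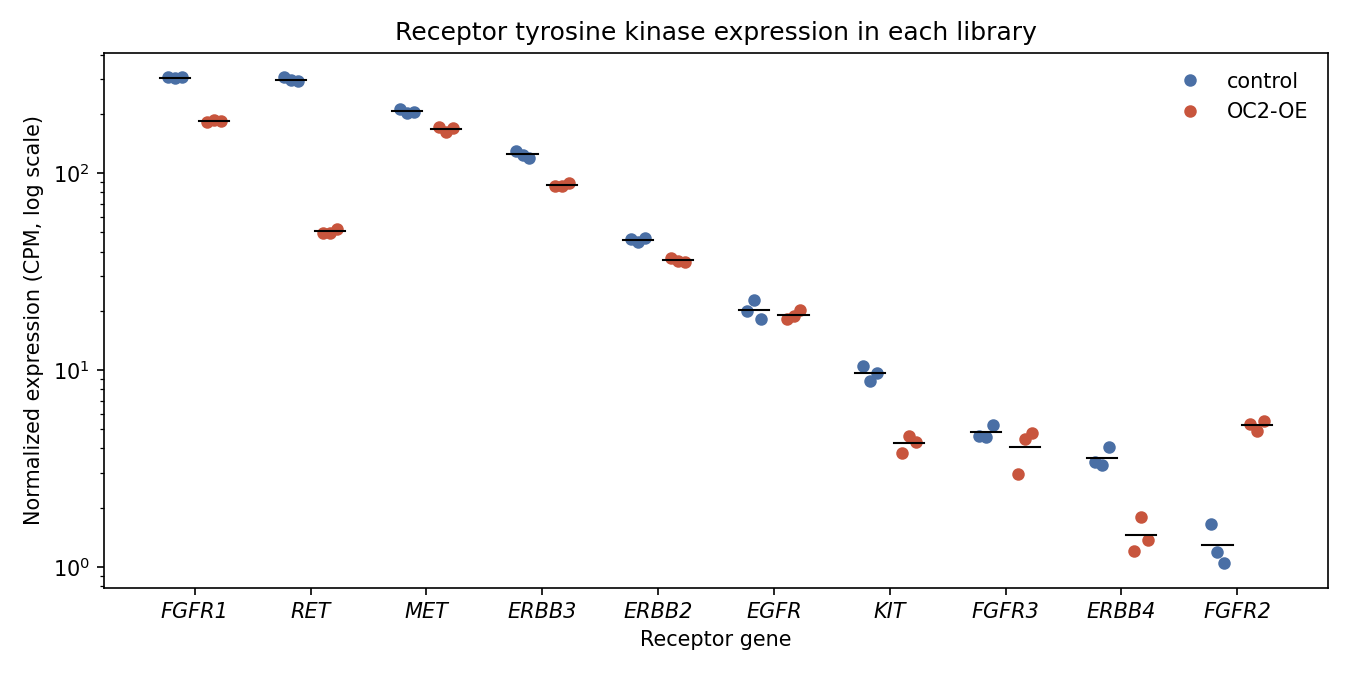
Normalized expression (CPM, log scale) of the 10 receptor genes in each library, with control in blue, OC2-OE in red and a line at each group mean (n = 3). RET drops from about the level of FGFR1 to between those of ERBB3 and ERBB2, FGFR2 is the only one of the 10 whose OC2-OE points all lie above the control points, and the groups overlap for EGFR and FGFR3.

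RET (ENSG00000165731.21, chr10:43077064-43130351, plus strand) showed the largest difference of the 10. The control libraries had 306, 296 and 294 CPM and the OC2-OE libraries had 49.9, 49.7 and 52.1 CPM. The groups lie far apart, and the 3 values of a group are within a few percent of each other. OC2-OE cells kept 16.9% of the control level, a log2 fold change of -2.56 (SE 0.033, adjusted p = 1.00e-98, edgeR). In counts, RET had 15450 over the control libraries and 2768 over the OC2-OE libraries, so the change does not rest on few reads. RET is also a marker of an NE subtype of SCLC that the study lists among the altered genes of these same libraries, so its fall here is not independent evidence of that subtype's direction.

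KIT and MET, which bind stem cell factor and hepatocyte growth factor, both fell, by different amounts. KIT (ENSG00000157404.17, chr4:54657267-54740783, plus strand) had 10.4, 8.84 and 9.72 CPM in control and 3.81, 4.62 and 4.34 CPM in OC2-OE libraries. Its log2 fold change was -1.19 (SE 0.126, adjusted p = 2.25e-15, edgeR), on 501 summed counts against 232. KIT thus kept 44.0% of its control level and every OC2-OE library lay below every control library. MET (ENSG00000105976.16, chr7:116672196-116798377, plus strand) had 212, 201 and 204 CPM in control and 172, 161 and 169 CPM in OC2-OE libraries. MET kept 81.4% of its control level, the largest share among the 7 receptors that fell and close to that of ERBB2, with a log2 fold change of -0.30 (SE 0.029, adjusted p = 3.95e-17, edgeR). MET stayed a highly expressed receptor in both groups.

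Among the 4 ERBB receptors, ERBB2, ERBB3 and ERBB4 fell and EGFR did not pass the test. EGFR (ENSG00000146648.21, chr7:55019017-55211628, plus strand) had 19.96, 22.7 and 18.1 CPM in control and 18.2, 18.9 and 20.3 CPM in OC2-OE libraries. The groups overlap, and the log2 fold change was -0.08 (SE 0.076, adjusted p = 0.322, edgeR). Without control replicate 2, which had the highest EGFR level, the log2 fold change was 0.0029 (adjusted p = 0.978, edgeR).

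ERBB2 (ENSG00000141736.14, chr17:39687914-39730426, plus strand), the partner that binds no ligand, had 46.2, 44.5 and 47.1 CPM in control and 37.2, 36.0 and 35.6 CPM in OC2-OE libraries. Its log2 fold change was -0.34 (SE 0.053, adjusted p = 6.09e-09, edgeR), with 78.9% of the control level kept. ERBB3 (ENSG00000065361.17, chr12:56076799-56103505, plus strand), a neuregulin receptor that signals through its partners, had 130.1, 124 and 119.9 CPM in control and 86.3, 85.9 and 89.4 CPM in OC2-OE libraries. For ERBB3 the groups are separated by a wide gap and 69.9% of the control level was kept, a log2 fold change of -0.52 (SE 0.036, adjusted p = 1.10e-26, edgeR). ERBB4 (ENSG00000178568.15, chr2:211375717-212538841, minus strand), a neuregulin receptor with an active kinase, had 3.43, 3.29 and 4.06 CPM in control and 1.20, 1.79 and 1.37 CPM in OC2-OE libraries. ERBB4 thus fell by 1.31 on the log2 scale (SE 0.214, adjusted p = 3.74e-08, edgeR), but on only 185 summed counts against 79, and its level is among the lowest of the 10 in both groups.

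The 3 fibroblast growth factor receptors went different ways. FGFR1 (ENSG00000077782.23, chr8:38400215-38468834, minus strand) had 307, 304 and 307 CPM in control and 182, 186 and 183 CPM in OC2-OE libraries. These values hardly vary within a group, and FGFR1 kept 60.1% of its control level, a log2 fold change of -0.73 (SE 0.026, adjusted p = 6.90e-52, edgeR). FGFR2 (ENSG00000066468.24, chr10:121478332-121598458, minus strand) had 1.66, 1.20 and 1.05 CPM in control and 5.32, 4.91 and 5.54 CPM in OC2-OE libraries. It rose 4.04-fold (log2 fold change 1.996, SE 0.196, adjusted p = 4.21e-17, edgeR), from 68 summed counts to 288, and so remained a low-level receptor. FGFR3 (ENSG00000068078.20, chr4:1793293-1808872, plus strand) had 4.60, 4.60 and 5.29 CPM in control and 2.97, 4.44 and 4.78 CPM in OC2-OE libraries. The groups overlap, and the log2 fold change of -0.25 (SE 0.157) did not pass the test (adjusted p = 0.140, edgeR). It was -0.06 without OC2-OE replicate 1, the lowest library, and -0.38 without OC2-OE replicate 3, and passed in neither case. FGFR4 (24.7 ± 1.03 CPM in control, SD, n = 3), the remaining kinase receptor of this family, rose to 31.7 ± 1.85 CPM (log2 fold change 0.36, SE 0.063).

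To compare levels between genes, CPM was divided by the summed exon length of each gene in kilobases, which gives FPKM. In control cells the order of levels was RET (33.3 ± 0.754 FPKM, SD, n = 3), MET (28.5 ± 0.778), FGFR1 (17.8 ± 0.105), ERBB3 (10.7 ± 0.435), ERBB2 (4.45 ± 0.127), EGFR (1.27 ± 0.146), FGFR3 (0.997 ± 0.0817), KIT (0.853 ± 0.0704), ERBB4 (0.276 ± 0.0316) and FGFR2 (0.0691 ± 0.0170). In OC2-OE cells MET led with 23.2 ± 0.747 FPKM, followed by FGFR1 (10.7 ± 0.113), ERBB3 (7.45 ± 0.164), RET (5.64 ± 0.150) and ERBB2 (3.51 ± 0.0794). Next in that order were EGFR (1.20 ± 0.0650), FGFR3 (0.838 ± 0.198), KIT (0.376 ± 0.0362), FGFR2 (0.279 ± 0.0172) and ERBB4 (0.112 ± 0.0233). By FPKM, RET moved from rank 1 to rank 4 and FGFR2 passed ERBB4, while the other receptors kept their relative order. No 2 neighbours in either FPKM order overlapped over the libraries. The top of the order depends on the length scaling. On CPM, FGFR1 stood above RET in control cells (306 against 299) and above MET in OC2-OE cells (184 against 167). Among all 58 receptor tyrosine kinase genes, RET was at FPKM rank 1 in control cells and rank 9 in OC2-OE cells. Its OC2-OE libraries overlapped those of LMTK3 at rank 10. The highest level of the 58 in OC2-OE cells was that of DDR1, a collagen receptor, with 33.7 ± 0.127 FPKM against 26.5 ± 0.548 in control cells.

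The summed level of the 10 receptors was 100.4, 96.8 and 97.1 FPKM in control libraries and 53.3, 52.4 and 54.0 FPKM in OC2-OE libraries, so OC2-OE cells held 54.3% of the control sum. RET made up 34.0%, 34.0% and 33.7% of the sum in control libraries and 10.4%, 10.6% and 10.8% in OC2-OE libraries. The groups do not overlap, and the difference was 23.3 percentage points (exact two-sided permutation test, p = 0.1, the smallest that 3 against 3 libraries can give). MET, with a modest fall of its own, made up 29.03 ± 0.248% (SD, n = 3) of the control sum and 43.5 ± 0.968% of the OC2-OE sum. The share of ERBB3 went from 10.9 ± 0.271% to 13.98 ± 0.159% and that of FGFR1 from 18.1 ± 0.315% to 20.1 ± 0.488%. These shares must add up to the whole, so a larger share does not mean a higher level. The shares of ERBB4 were the only ones of the 10 to overlap between the groups (exact permutation test, p = 0.3).

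**Figure D2:**
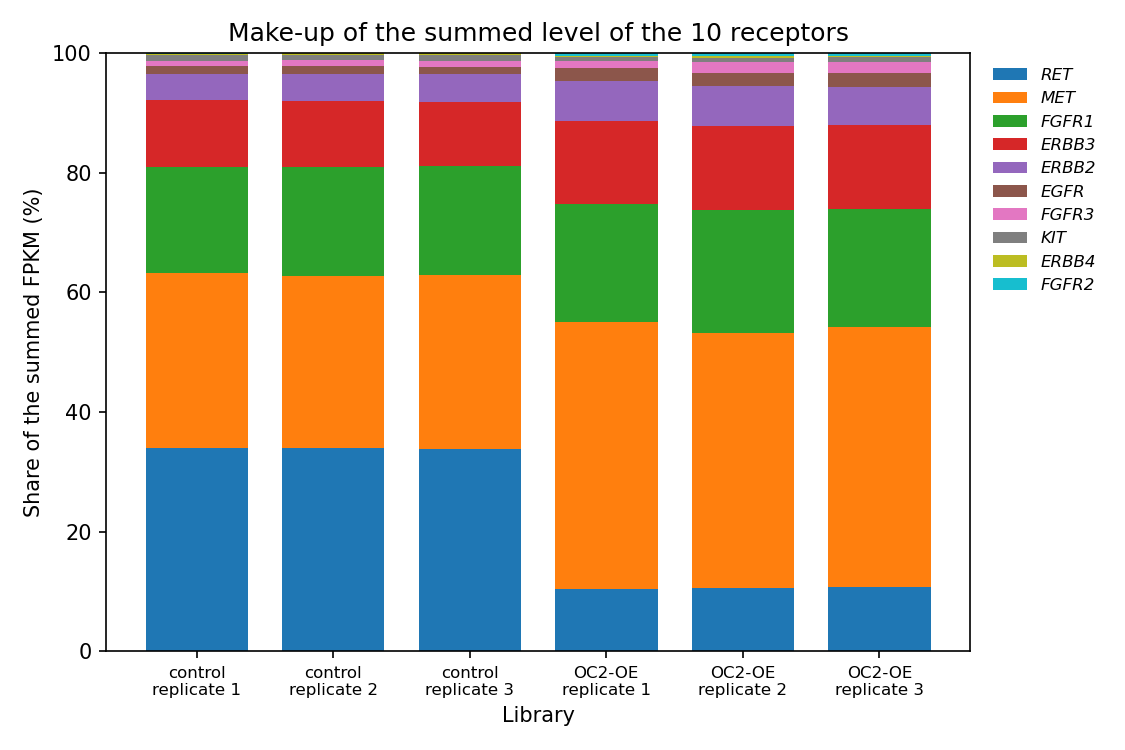
Share of each of the 10 receptors in their summed FPKM (percent, stacked to 100), 1 bar per library. RET takes 33.7% to 34.0% of each control bar and 10.4% to 10.8% of each OC2-OE bar, and MET is the largest share in every OC2-OE bar.

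The other receptor tyrosine kinases were read beside the 10. Of 48 such genes 35 could be tested, and 12 were higher, 12 lower and 11 did not pass. That is 68.6% called, against 56.5% of all tested genes. The other kinases had a median log2 fold change of 0.08 and a median absolute change of 0.75, against -0.43 and 0.63 for the 10. The 10 thus did not exceed the other kinases in size of change. Over all 58 genes, 45 were tested, and RET had the third largest absolute log2 fold change. EPHA4, an ephrin receptor, fell from 28.7 ± 1.88 CPM (SD, n = 3) to 4.18 ± 0.403 CPM, with a log2 fold change of -2.79 (SE 0.097). KDR, the main receptor of VEGF, fell from 10.6 ± 1.32 to 1.55 ± 0.227 CPM (log2 fold change -2.77, SE 0.157). FLT1, another VEGF receptor, fell from 10.6 ± 1.11 to 1.91 ± 0.373 CPM (log2 fold change -2.47, SE 0.150). RET was much more abundant than these 3 in control cells on either the CPM or the FPKM scale.

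The ephrin receptors, the largest family among them, moved in both directions. Of 11 tested genes 6 fell and 4 rose, where 28.7% of all tested genes were lower and 27.8% higher. EPHA7 and EPHB1 fell by 2.43 and 2.33 on the log2 scale, while EPHB4, EPHA10 and EPHA1 rose, with log2 fold changes of 2.13, 1.15 and 1.06. ROR1, a WNT5A receptor, fell from 25.6 ± 1.42 to 4.80 ± 0.372 CPM (SD, n = 3). The insulin and IGF receptors INSR and IGF1R, which carry metabolic and survival signals, had log2 fold changes of 0.08 (SE 0.049) and -0.12 (SE 0.053) and did not pass the test. TYRO3 and MERTK, receptors of GAS6, rose with log2 fold changes of 0.79 and 0.32, and AXL, their relative, had 0 counts in all 6 libraries.

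**Figure D3:**
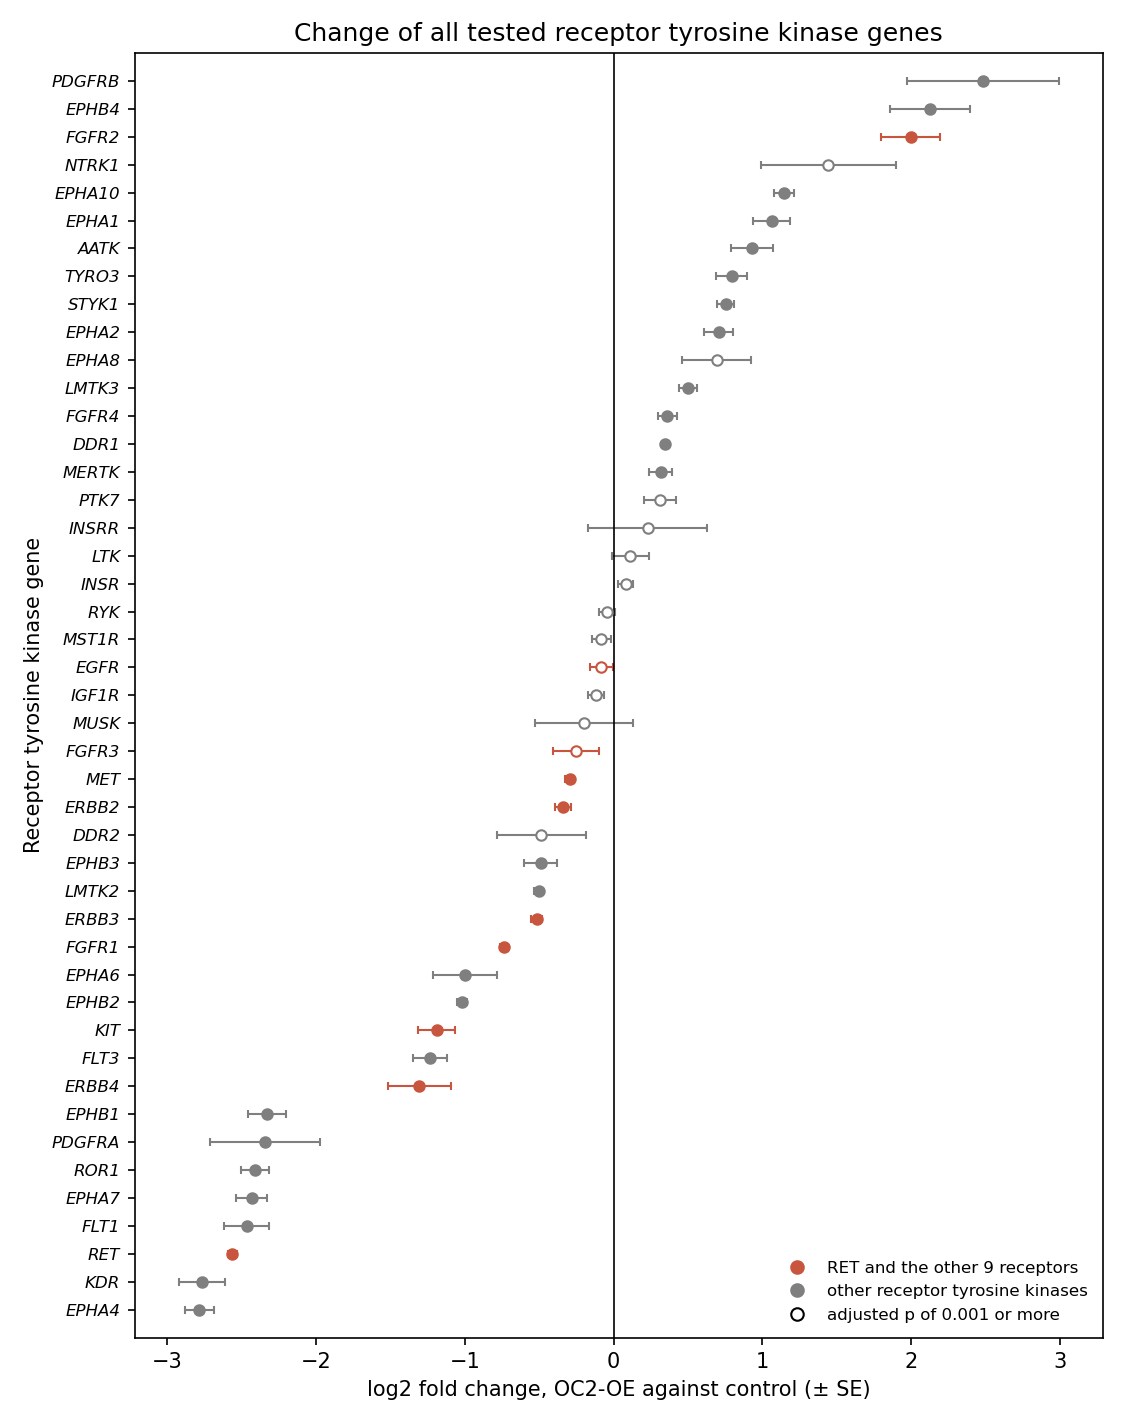
Log2 fold change of OC2-OE against control (± SE) for the 45 tested receptor tyrosine kinase genes, ordered by size. The 10 receptors described here are in red and the others in grey, and open points did not pass an adjusted p of 0.001. RET is the third lowest, after EPHA4 and KDR, and FGFR2 the third highest.

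The ligands and co-receptors of RET were the next question, since RET cannot bind its ligands alone. Of 10 genes 6 were tested, and GFRA1 and GFRA3 fell while GDF15 rose. GFRA1, the co-receptor for GDNF, had 22.6, 22.4 and 26.5 CPM in control and 14.6, 12.5 and 12.7 CPM in OC2-OE libraries. The groups are separated, with a log2 fold change of -0.84 (SE 0.079, adjusted p = 5.50e-18, edgeR). GFRA3, the co-receptor for artemin, was the most abundant of the co-receptors and fell by 0.36 on the log2 scale (SE 0.041), with 86.5 ± 1.77 CPM in control and 67.3 ± 2.96 CPM in OC2-OE cells (SD, n = 3). GFRA2 and GFRAL, the latter the co-receptor through which GDF15 reaches RET, had 0 counts in all libraries. GDF15 itself, a stress-induced secreted factor, had 591, 605 and 632 CPM in control and 1917, 1915 and 1932 CPM in OC2-OE libraries. It rose 3.15-fold (log2 fold change 1.66, SE 0.020). GDNF had 13 counts over the control libraries and 0 over the OC2-OE libraries, at least 4.59-fold lower when 3 counts over the group are put in place of 0. The ligands ARTN, PSPN and NRTN had log2 fold changes of 0.09, 0.00 and 0.57, none of which passed the test.

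For KIT and MET, 7 of 7 ligand and processing genes passed the test, 5 lower and 2 higher. Over all tested genes 56.5% passed, 28.7% lower and 27.8% higher. KITLG, which encodes stem cell factor, fell by 0.61 on the log2 scale (SE 0.103), with 12.2 ± 0.432 CPM in control and 8.02 ± 0.915 CPM in OC2-OE cells (SD, n = 3). HGF, the MET ligand, had 83.4, 86.0 and 82.8 CPM in control and 30.8, 35.5 and 31.1 CPM in OC2-OE libraries. HGF fell to 38.6% of its control level (log2 fold change -1.38, SE 0.048), beside 81.4% for MET itself. Of the serine proteases that activate HGF, HGFAC fell (log2 fold change -0.86, SE 0.190), ST14 fell by 0.14 (SE 0.024) and HPN rose by 0.64 (SE 0.070). The inhibitors of these proteases diverged, with SPINT1 down from 305 ± 4.69 to 196 ± 3.20 CPM and SPINT2 up from 445 ± 9.83 to 640 ± 7.89 CPM.

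Of 11 ERBB ligands 8 were tested, with 4 higher and 1 lower in OC2-OE cells. That is 62.5% called, near the 56.5% of all tested genes. Whether the ligands differ in direction from the ERBB receptors was not tested. BTC (betacellulin) had 4.98, 5.38 and 4.98 CPM in control and 19.5, 19.1 and 19.0 CPM in OC2-OE libraries, a log2 fold change of 1.91 (SE 0.101). NRG2, a neuregulin, rose from 3.18 ± 0.385 to 11.1 ± 1.14 CPM (SD, n = 3). AREG (amphiregulin), a ligand of EGFR, had 22.5, 21.9 and 19.0 CPM in control and 62.9, 60.0 and 60.0 CPM in OC2-OE libraries, a log2 fold change of 1.52 (SE 0.057). The groups are well separated for each of these ligands. TGFA, another EGFR ligand, rose from 36.0 ± 0.979 to 50.9 ± 1.64 CPM (SD, n = 3). NRG1, a ligand of ERBB3 and ERBB4, was the ligand that fell, from 9.28 ± 0.751 to 3.79 ± 0.484 CPM (log2 fold change -1.29, SE 0.131). EGF, with 2.42 ± 0.389 CPM in control and 2.81 ± 0.187 CPM in OC2-OE cells, did not pass the test.

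Among the tested genes, the fibroblast growth factors and their co-receptors held the largest differences of any ligand group described here. Of 24 genes 10 were tested and all 10 passed, 6 higher and 4 lower, where 56.5% of all tested genes passed. The count filter needs enough counts in the libraries of 1 group only. FGF19, FGF17 and FGF22, with 14, 20 and 9 summed counts in control, met it only through the OC2-OE libraries. That all 10 passed is thus partly set by the filter. The split was not stable, with 5 higher and 5 lower without a filter on low counts, 4 and 4 by the DESeq2 Wald test, and 3 and 4 when at least 10 counts were required in every library. FGF19, an endocrine FGF that signals mainly through FGFR4 with the co-receptor KLB, had 0.375, 0.120 and 0.307 CPM in control and 24.1, 22.0 and 24.4 CPM in OC2-OE libraries. It went from 14 summed counts to 1287, a log2 fold change of 6.40 (SE 0.181). KLB rose as well, from 1.95 ± 0.437 to 5.85 ± 0.687 CPM (SD, n = 3). KL (klotho), the co-receptor for FGF23, fell from 7.82 ± 1.04 to 1.06 ± 0.164 CPM, a log2 fold change of -2.88 (SE 0.186). FGF2, a ligand of many FGF receptors, rose from 1.80 ± 0.0457 to 7.01 ± 0.380 CPM, whereas FGF9 fell from 60.9 ± 0.980 to 25.9 ± 1.06 CPM. The klotho co-receptors thus moved in opposite directions.

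Downstream of the receptors, changes were mixed in direction. Of 29 tested genes for adaptors and the RAS-ERK and PI3K relay, 11 rose and 10 fell, all with absolute log2 fold changes below 1 and a median of -0.02 over the list. That is 72.4% called, against 56.5% of all tested genes. The even split of the relay genes depends on the scaling, with 14 higher and 7 lower both by library size only and by upper-quartile normalization. PIK3CA, a catalytic PI3K subunit, rose with a log2 fold change of 0.85 (SE 0.048), and the regulatory subunits PIK3R3 and PIK3R1 fell by 0.72 (SE 0.035) and 0.70 (SE 0.046). Among 14 attenuators of receptor signalling, 5 rose and 5 fell (71.4% called), or 6 and 4 by library size only. ERRFI1, an inhibitor of EGFR-family kinases, fell from 40.9 ± 0.976 to 20.1 ± 0.812 CPM (SD, n = 3), and the receptor phosphatase PTPRJ rose from 18.4 ± 1.91 to 32.5 ± 1.43 CPM. CBLC, a ubiquitin ligase of the CBL family, rose from 7.81 ± 0.141 to 12.2 ± 0.129 CPM.

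Of 16 genes whose transcription commonly follows ERK activity, 7 rose and 4 fell, and they did not move as a block. That is 68.8% called, against 56.5% of all tested genes. IER3, an early response gene, had 22.5 ± 0.708 CPM in control and 586 ± 2.38 CPM in OC2-OE cells (SD, n = 3) and rose with a log2 fold change of 4.71 (SE 0.034). The ERK phosphatase DUSP6 fell from 64.0 ± 1.02 to 27.7 ± 0.755 CPM and SPRY1, a feedback inhibitor of receptor signalling, from 17.96 ± 1.69 to 6.08 ± 0.893 CPM. All 11 genes on the list of proteases that shed or mature receptors and ligands passed the test, 8 higher and 3 lower. Over all tested genes 56.5% passed, 27.8% higher and 28.7% lower. RHBDF1, which supports the sheddase ADAM17, rose with a log2 fold change of 1.00 (SE 0.062). FURIN, which cleaves precursor proteins, fell by 0.95 (SE 0.024), and ADAM12 fell by 1.30 (SE 0.275) at a low level.

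The 5 genes whose profile over the 6 libraries was closest to that of RET, by Euclidean distance between centred log2 CPM profiles among 11059 genes, were GPC3, SH3RF3, PCSK1, PRMT8 and LRATD1. Their distances were 0.0820, 0.0934, 0.0997, 0.104 and 0.113. PCSK1, a prohormone convertase of neuroendocrine cells, was the most abundant of them, with 5857 ± 98.2 CPM in control and 959 ± 9.25 CPM in OC2-OE cells (SD, n = 3). With 3 libraries in each of only 2 groups, a small distance mainly means a fall of the same size as that of RET.

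Markers were read beside these results to check the labelled cell type. Of 10 NE markers 7 fell and 2 rose, or 90.0% called against 56.5% of all tested genes. The summed level of these markers was 6010 to 6066 CPM in control libraries and 5770 to 5864 CPM in OC2-OE libraries. Most of that sum came from CALCA, the calcitonin gene, which fell from 3774 ± 9.98 to 2630 ± 27.0 CPM (SD, n = 3), and from SCG2, a granule protein, which rose from 801 ± 21.4 to 2273 ± 10.3 CPM, so the sum moved less than most of its members. NKX2-1, a lung lineage factor, had the largest fall of them, from 144 ± 6.93 to 31.6 ± 1.13 CPM (SD, n = 3), NCAM1 fell from 164 ± 7.83 to 41.2 ± 1.85 CPM and INSM1 from 329 ± 7.23 to 86.6 ± 7.44 CPM, whereas the granule protein CHGA rose. Fibroblast, endothelial and immune markers had summed levels of 21.4 to 23.9, 118 to 122 and 4.01 to 4.72 CPM in control and of 28.4 to 32.2, 147 to 150.4 and 7.62 to 9.17 CPM in OC2-OE libraries. Of these lists 3, 3 and 2 genes were tested, with 2, 1 and 2 higher and 0, 1 and 0 lower, and EGFL7, COL1A1 and CD14 carried most of the sums. Some defining markers were at or near 0: THY1, CD3E and TYROBP had 0 counts in all libraries, PTPRC had 0 and 3, DCN had 3 and 3 and TEK had 2 and 0 counts over the control and OC2-OE libraries. Others were above that or moved at low levels. LYZ went from 21 to 122 summed counts (log2 fold change 2.44) and PDGFRB from 8 to 49 (log2 fold change 2.48), and both passed the test. COL1A2 went from 27 to 65 counts, which did not pass, and VWF from 1 to 17, which were too few to test. Of the endothelial markers, PECAM1 had 125 and 134 counts and did not pass, and CDH5 fell from 52 to 3. All libraries came from cultures of a single parental line. Whether any other cells have a part in the receptor results was not tested.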

How the data were processed

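RNA from 6 DMS53 cultures (3 control, 3 OC2-OE) was analysed. The authors made stranded poly(A) libraries, aligned reads to GRCh38 with STAR version 2.7.9a and counted read pairs on GENCODE release 42 exons by strand with featureCounts version 1.6.0, per the labels, the submitters' processing notes and the file headers. The deposited values are raw counts, 1 file per library. The exon length of each gene deposited with the counts was used for FPKM.

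Gene symbols were matched for 62625 of 62696 genes. Counts were normalized with TMM, filtered with filterByExpr and tested with edgeR version 4.0.16 in R version 4.3.3 (robust quasi-likelihood fit, no replicate term, Benjamini-Hochberg adjustment over 17307 genes). The study's threshold of 0.001 was kept. SEs were derived from the size of each log2 fold change and the square root of its F statistic. Bounds for 0 counts used 3 counts over the group and cover counting error only. Promoter windows were taken from RefSeq (GRCh38.p14). The fit was tested on simulated data.

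The receptors, gene lists and tests were chosen with earlier results of these data known. Beside the 10 receptors and ONECUT2, the genes named were 8 main ligands and co-receptors, the 3 genes with the largest absolute change on each list (adjusted p under 0.001, mean log2 CPM of at least 0, groups not overlapping) and the 5 genes with profiles nearest to RET (mean log2 CPM of at least 3). Others named, such as FGFR4, DDR1, FGF9, KLB, ROR1, the ephrin receptors beside EPHA4, INSR, IGF1R and AXL, were chosen after their values were seen. Alternatives were other size factors, library size only, upper-quartile normalization, DESeq2 version 1.42.0, limma version 3.58.1 (voom), other count filters, ONECUT2 left out, a replicate block, each library left out and other thresholds.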

Additional observations from a re-analysis of the deposited data

How the results depend on the processing

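Of the 10 receptors 8 were called under each other normalization, test, count filter, replicate block, left-out library and the adjusted p of 0.05, and 4 (1 higher, 3 lower) when a change of 1 or more on the log2 scale was required. That fold minimum left 2999 of 9776 genes (1435 higher, 1564 lower) and 35 of the 102 genes called on the pathway lists (16 higher, 19 lower). Leaving out each library in turn gave 8944 to 9340 genes, 8 receptors each time and 93 to 101 list genes, and changes in the RET share of -23.4 to -23.3 percentage points. The adjusted p of RET was at most 1.22e-41 under any setting. Without length scaling the RET share fell by 20.2 percentage points. EGFR, not called, had log2 fold changes of -0.16 to 0.0029 when each library was left out, the latter without control replicate 2, and FGFR3, also not called, of -0.38 to -0.06. The FGF list had 7 to 10 called genes over the settings, the fewest with at least 10 counts required in every library. With the replicate number as a replicate block, 9642 genes, 8 receptors and 102 list genes were called. Correlations between same-numbered libraries of the 2 groups were 0.00115, 0.0301 and 0.0252 over 11060 genes. Those between differently numbered libraries ran from -0.0316 to 0.00511. All these values were small, so they do not settle whether the numbers pair the samples. Scaling moved the median log2 fold change of all genes to at most 0.06. Depth limits FGFR2, ERBB4, GDNF and FGF19 in control cells, which rest on few counts.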

Other observations

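Some receptor and ligand genes that lie next to each other moved in the same direction, which was noticed after their values were seen. Of 13 pairs of neighbours on the receptor and ligand lists, within 1000 kb and with both genes tested, 4 passed in the same direction, 0 in opposite directions, 6 had 1 gene that passed and 3 had none. Over all tested genes 28.7% were lower and 27.8% higher, so some pairs would pass in the same direction anyway. The 4 pairs are also not separate, since KIT is paired with both PDGFRA and KDR. Without a count over all neighbouring genes, these numbers do not show that neighbours move together. PDGFRA, KIT and KDR lie in a row on chromosome 4, with 359 and 338 kb between neighbours, and had log2 fold changes of -2.34, -1.19 and -2.77. PDGFRA and KDR were the only 2 tested genes within 500 kb of KIT. FLT3 and FLT1, 200 kb apart on chromosome 13, fell by 1.23 and 2.47 on the log2 scale. AREG and BTC, 290 kb apart on chromosome 4, rose with log2 fold changes of 1.52 and 1.91, and EREG, next to AREG, went from 4 summed counts to 32 and had too few counts for the test. Close neighbours did not always move together: TYRO3 rose while LTK, 43.8 kb away, had a log2 fold change of 0.11 and did not pass the test. EPHB2 fell by 1.02 on the log2 scale while EPHA8, 107 kb away, had 0.69 and did not pass, and NRG2 rose (1.80) beside HBEGF (0.17, not passed). Of 11 tested genes within 500 kb of RET 4 rose, 1 fell and 6 did not pass, with a median log2 fold change of 0.35. Whether a shared region has a part in any of these changes was not tested.

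Genes with 0 or near 0 counts were also seen on the low side. FGFBP1, a carrier of FGFs, had 16 counts over the control libraries and 0 over the OC2-OE libraries, at least 5.65-fold lower against 3 counts over the group. CDH5, the endothelial cadherin, had 52 and 3 counts, a ratio of 18.3 with an exact 95% counting interval of 5.94 to 91.9, which covers counting error only.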
